A study of Zea mays with 4 samples.

Results

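T3 was the library from maize (Zea mays) leaves at the 4-leaf stage after 3 days of feeding by Spodoptera frugiperda, the fall armyworm. Its microRNA profile was set against that of CK3, the unfed library with the same title number. The comparison covered every distinct sequence with a normalised value of at least 10 in either library, which left 185 of the 319 sequences in the table. The study profiled maize leaf microRNAs while the insect fed, with 4 small RNA libraries in all, 1 a group. The other libraries were T1, from leaves at that stage after 1 day of feeding, and the unfed CK1, which served as a check on each difference from CK3. CK1 and CK3 are labelled only as leaves of the same stage and are called unfed because their labels name no feeding. The labels do not say when they were taken or name a maize line. The labels' protocol counts more libraries than there are samples here, and no source says whether a value column pools several. With 1 library a side there was no replicate error to set a difference against, so sizes are given and no test was made.

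Plant microRNAs are cut from hairpin precursors by a Dicer enzyme, DCL1, and a precursor can yield a mature strand from its 5′ arm and another from its 3′ arm. Argonaute proteins hold the mature strand and use it to find messenger RNAs, which are then cleaved or translated less, and AGO1 favours strands that begin with uracil. Most conserved families repress transcription factors of growth and development, and a second group acts on copper proteins, laccases and nutrient transport.

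The sequences below carry the main differences described here. They are copied as DNA letters from the deposited table, 5′ to 3′, with the seed (bases 2 to 8) in capitals. Names are those of the table, in which L and R count bases added to or lost from an end of the reference and ss marks a substitution. The miR164 sequences are the 4 compared with the seed GGAGAAG, and the first differs from the last by added 3′ bases. All 4 were 2-fold higher in T3 than in CK3, beside 24.9% over all sequences. The last was listed at 0 in CK3 and passed the minimum through T3 alone, so it could not be lower. Against CK1, 2 of the 4 were 2-fold higher.
zma-miR164a-5p: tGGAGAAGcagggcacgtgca
zma-miR164f-5p: tGGAGAAGcagggcacgtgct
zma-miR164e-5p: tGGAGAAGcaggacacgtgag
gma-miR164a_R+3: tGGAGAAGcagggcacgtgcacca
The miR166 sequences share the seed CGGACCA and are the leading maize members of that family, with an extended form that was listed at 0 in both unfed libraries.
zma-miR166a-3p: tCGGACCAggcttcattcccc
zma-miR166l-3p: tCGGACCAggcttcattcctc
zma-miR166j-3p: tCGGACCAggcttcaatccct
osa-miR166a-3p_R+1: tCGGACCAggcttcattcccca
The miR160 sequences share the seed GCCTGGC and are shown because forms of different length lay on opposite sides of CK3.
zma-miR160f-5p_R-1: tGCCTGGCtccctgtatgcc
zma-miR160a-5p: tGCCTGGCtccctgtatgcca
mtr-miR160a_R+1: tGCCTGGCtccctgtatgccat
The next 4 are the arms of the precursors of miR397b and miR398a, whose arms differed in their ratio of T3 to CK3.
zma-MIR397b-p5: tTGAGCGCagcgttgatgagc
zma-MIR397b-p3: tCACCAGCgctgcactcaatt
zma-miR398a-5p_R+2_1ss21GA: gGGGCGAActgagaacacataag
zma-miR398a-3p: tGTGTTCTcaggtcgcccccg
The 2 leading sequences of the table are shown because the first is the start of the second although the names put them on opposite arms.
tae-MIR9774-p5_2ss4AG21GT: aCAGGATAttgggtatttctt
tae-MIR9774-p3_2ss4AG21GT: aCAGGATAttgggtatttcttt
The miR5083 sequences stood 2-fold above both unfed libraries, and overlap each other under names of opposite arms.
osa-MIR5083-p3_1ss25GT: aAACCAATggatccttctgagcctt
osa-MIR5083-p5_1ss24GC: aACCAATGgatccttctgagcctc
The last 3 are lower in T3 than in CK3 and are shown for their high values in CK3, namely a pair of offset miR5368 sequences and a miR6173 sequence.
gma-MIR5368-p3_2ss1AT18CA: tGAGATACcactctggaag
gma-MIR5368-p3_1ss17CA: gAGATACCactctggaag
hbr-MIR6173-p3_1ss4CT_3: cAGTGCTGtagctaacgcgtt

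Of the 185 sequences, 77 had a maize name, 102 the name of another plant's microRNA and 6 a label of a predicted candidate (PC). Just inside the minimum stood zma-miR166c-5p, with 10.2 in T3 and 9.08 in CK3, and just outside it zma-miR169m-3p_L+1, with 7.04 in T3 and 9.91 in CK3. Values summed over all sequences came to 63609 in T3, 75008 in CK3, 63292 in T1 and 64034 in CK1. The step between low values, taken as the value of 1 read, was 0.352 in T3, 0.826 in CK3, 0.303 in T1 and 0.736 in CK1, so a value in T3 rested on more reads than the same value in CK3. The listed sequences amounted to about 180674 implied reads in T3 and 90834 in CK3, with 276 sequences listed above 0 in T3 and 201 in CK3. Hardly any value stood below 5 reads, so a listed 0 can hide up to 1.76 in T3, 4.13 in CK3 and 3.68 in CK1. Wheat-named miR9774 sequences took 57.8% of the summed value in T3, 65.5% in CK3, 60.6% in T1 and 60.4% in CK1. No name in the table carried an insect species prefix, and the table holds no leaf marker genes. In these bulk leaves, fewer cells of a type and less of a microRNA per cell cannot be told apart.

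After 3 days of feeding, some microRNA families, among them miR164, miR166 and miR160, stood about 2-fold higher in T3 than in CK3 but not 2-fold from CK1. Many short and long sequences of the miR5368, miR6173, miR4995 and miR6300 names stood lower than in CK3, but only 2 of them were also 2-fold below CK1. The median log2 ratio of T3 to CK3 over all sequences was 0.01. Ratios are log2((T3 + 1)/(CK3 + 1)), and a sequence is called higher or lower at a 2-fold difference on this scale. It understates the difference of low sequences listed in both libraries. For a sequence listed at 0 in CK3 it can overstate the difference, since that 0 can hide up to 4.13. By that rule 46 of the 185 sequences (24.9%) were higher in T3 and 43 (23.2%) were lower. Against CK1, 35 of 173 (20.2%) were higher and 13 (7.51%) lower, and the median log2 ratio was 0.08. Scaled to equal sums over the table, to which miR9774 contributes most, the median became 0.31 and the counts against CK3 57 higher and 33 lower. Most of the sequences that differed from CK3 did not differ 2-fold from CK1 in the same direction. Of the 46 higher sequences, 30 were above CK1 at all, 15 were 2-fold above it and 2 were 2-fold below it. Of the 43 lower sequences, 12 were below CK1, 4 were 2-fold below it, of which 2 were under 10 in T3 and CK1, and 17 were 2-fold above it. T3 lay between the unfed libraries for 91 sequences, above both for 59 and below both for 35. The unfed libraries themselves differed about as often, with 54 of 187 sequences higher and 42 lower in CK3 than in CK1. Of the 57 sequences with at least 100 in either library, 5 were higher and 13 were lower.

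**Figure D1:**
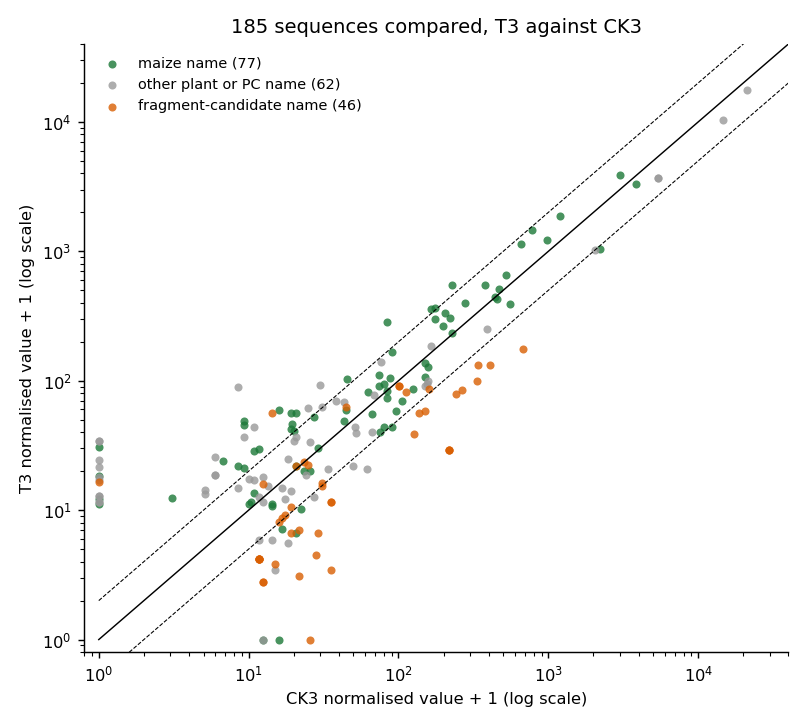
Normalised value + 1 of each of the 185 sequences in T3 (vertical, log scale) and CK3 (horizontal, log scale), coloured by kind of name, with the line of equality and dashed lines at 2-fold. Maize-named sequences lie mostly on or above equality, and most of the 46 sequences with fragment-candidate names lie below it.

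The lower sequences were concentrated in a set of names that are candidates for fragments of ribosomal or transfer RNA, namely miR4995, miR5072, miR5077, miR5368, miR6173, miR6300, miR6478 and miR8175. These names had been picked with the values known, many because they stood high in CK3, so their counts are a description only. Leaving them out tends by that choice to raise ratios of T3 to CK3. Results without them, here and below, are therefore a description too. Where in the maize genome these sequences come from was not tested. Of 46 such sequences, 2 were higher (4.35%) and 29 lower (63.0%) in T3 than in CK3, with a median log2 ratio of -1.49. Over all sequences the shares were 24.9% and 23.2%. With nested forms of equal values merged, the 46 become 37. CK3 held the highest of the 4 values for 38 of them. Against CK1, 14 of 30 were 2-fold higher in T3 (46.7%, beside 20.2% over all) and 2 were lower (6.67%, beside 7.51%). The median was 0.75, so the direction turned with the control. The most abundant, gma-MIR5368-p3_2ss1AT18CA, had 174 in T3 against 671 in CK3, with 55.1 in T1 and 135 in CK1. The 3 nested sequences named hbr-MIR6173-p3_1ss4CT each had 28.2 in T3 against 217 in CK3, with 13.0 in T1 and 22.8 in CK1. T3 was thus far below CK3 but above T1 and CK1 in these sequences. The leading 18-nt sequence, gma-MIR5368-p3_1ss17CA, had 131 in T3 against 406 in CK3, with 52.7 in T1 and 82.4 in CK1, and the 23-nt gma-MIR5368-p3_2ss16CA22AC had 98.2 in T3 against 331 in CK3, with 29.97 in T1 and 44.2 in CK1. Both overlap the leading miR5368 sequence and show the same order of libraries for T3 and CK3. Of the 12 miR5368 sequences compared, 6 were lower than in CK3 (23.2% over all), and 7 were 2-fold higher than in CK1 (20.2% over all). The 20-nt hbr-miR6173 had 5.63 in T3 against 28.1 in CK3, with 4.54 in T1 and 0 in CK1. The 18-nt hbr-MIR6173-p5_1ss7TG had 2.46 in T3 against 34.7 in CK3 and was listed at 0 in T1 and CK1. The 4 miR4995 sequences ranged from 55.3 to 131 in T3, against 137 to 340 in CK3, with 39.7 to 122 in CK1. All 4 were lower than in CK3, beside 23.2% over all sequences. The furthest below, gma-miR4995_L-2R+4, had 83.1 in T3 against 263 in CK3, with 37.5 in T1 and 82.4 in CK1, so T3 was level with CK1. Of the 14 miR6300 sequences 10 were lower (23.2% over all), and several of them are forms with equal values in every library. Their 25-nt gma-miR6300_R+7_2 had 1.76 in T3 against 11.6 in CK3, with 2.12 in T1 and 0 in CK1. Their 24-nt gma-MIR6300-p3_1ss12AG had 5.99 in T3 against 20.6 in CK3, with 5.75 in T1 and 8.09 in CK1. These are low values, near the limit of listing in T3. Without these names 139 sequences remained, of which 44 were higher and 14 lower. Their median log2 ratio was 0.38 against CK3 and 0.01 against CK1.

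By the median of each length, the 21-nt class, the usual product of DCL1, stood somewhat higher in T3 than in CK3 and the 22-nt class lower. Among 76 sequences of 21 nt, 20 were higher (26.3%), near the 24.9% over all sequences. At this length 8 were lower (10.5%, beside 23.2% over all) and the median log2 ratio was 0.33. Fragment-candidate names were carried by 29 of the 43 lower sequences, but by 5 of the 76 at 21 nt. Without those names 7.04% were lower at 21 nt and 10.1% over all, with a median of 0.38 in both. The 21-nt class thus did not stand above the other sequences by median once those names were left out. Among 33 of 22 nt, 3 were higher (9.09%), 9 were lower (27.3%) and the median was -0.52. Against CK1 the medians were 0.04 for 21 nt and -0.23 for 22 nt, with 6 of 72 higher and 2 lower at 21 nt and 6 of 31 higher and 4 lower at 22 nt. The 22-nt class kept its sign against both controls, and the 21-nt class stood close to CK1. The 56 maize-named sequences of 21 nt had a median log2 ratio of 0.42 to CK3 and 0.02 to CK1, and the 10 of 22 nt had -0.51 to CK3.

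The share of the 21-nt class in the summed value was also higher in T3 than in CK3, although its sum was not, at 39646 in T3 and 40294 in CK3. The 21-nt class made up 62.3% of the summed value in T3, against 53.7% in CK3, with 60.6% in T1 and 58.0% in CK1. The 22-nt class made up 24.6% in T3, against 29.8% in CK3, with 27.2% in T1 and 28.7% in CK1. Without miR9774, whose sequences dominate both classes, 21-nt sequences made up 80.9% in T3, against 72.0% in CK3, with 82.8% in T1 and 83.2% in CK1. On the same reckoning 22-nt sequences made up 6.27% in T3, against 9.03% in CK3, with 6.45% in T1 and 6.59% in CK1. CK3 thus had the lowest 21-nt share of the 4 libraries with or without miR9774, and without it the 22-nt share of T3 was close to those of T1 and CK1. The leading 21-nt sequence, tae-MIR9774-p5_2ss4AG21GT, had 17711 in T3 against 21284 in CK3, with 17449 in T1 and 15820 in CK1. The leading 22-nt sequence, tae-MIR9774-p3_2ss4AG21GT, had 10290 in T3 against 14678 in CK3, with 11781 in T1 and 12110 in CK1. The 22-nt form was the lowest in T3 of the 4 libraries, whereas the 21-nt form lay between CK3 and CK1. Next among 21-nt sequences came maize zma-miR168b-3p_R+1, the strand opposite the AGO1-targeting one, with 3908 in T3 against 3005 in CK3, 3444 in T1 and 3889 in CK1.

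The other length classes held few sequences, and their medians changed with the control, that of the 20-nt class only once fragment-candidate names were left out. Among 15 sequences of 18 nt, 8 of them with fragment-candidate names, 5 were higher and 3 lower than in CK3, with a median log2 ratio of 0.33, and against CK1 7 of 12 were higher, none was lower and the median was 1.45. The 11 sequences of 19 nt, 6 with such names, had a median of -1.35 against CK3 (1.64 over the 5 without such names) and the 10 compared with CK1 a median of 1.09. The 17 sequences of 23 nt, 7 with such names, had medians of -0.66 against CK3 (0.21 with equal sums) and 0.01 against CK1. With nested forms of equal values merged, their median against CK3 was -0.28. The 5 of 25 nt, 4 with such names, had a median of -2.19 against CK3 (-1.74 when merged likewise) and the 3 compared with CK1 a median of 0.47. The 18 sequences of 20 nt, 6 higher and 3 lower than in CK3, had medians of 0.24 against CK3 and 0.28 against CK1, and were led by zma-miR156a-5p, with 444 in T3 and 441 in CK3, and zma-miR394a-5p. Without fragment-candidate names the 20-nt median was 1.03 against CK3, with 6 of 11 higher, and 0.24 against CK1, with 0 of 12 higher. The 24-nt class went the opposite way to the 19-nt class: of 10 sequences 5 were higher and 2 lower than in CK3, with a median of 1.12, while the 15 compared with CK1 had a median of -0.67. Among these, gma-miR408a-3p_L-1R+4 had 91.9 in T3 against 28.9 in CK3, with 93.1 in T1 and 74.1 in CK1. CK3 was the low library there, and T3 stood near T1 and CK1.

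**Figure D2:**
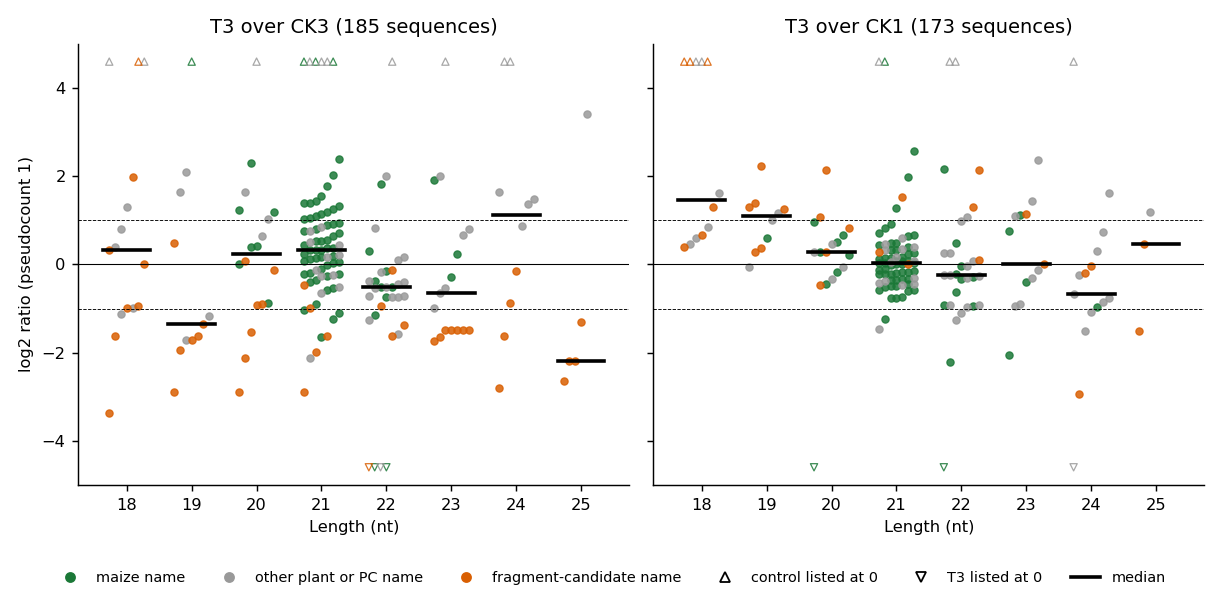
log2 ratio of T3 to CK3 (left) and of T3 to CK1 (right) for each sequence, by length in nt, with the median of each class as a bar and dashed lines at 2-fold; triangles at the edges mark sequences listed at 0 in one library, for which no ratio is given, although the medians count them with a pseudocount of 1. The 21-nt median is 0.33 against CK3 and 0.04 against CK1, and the 19-nt and 24-nt medians change sign.

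By first base, the 83 sequences that begin with T (uracil in the RNA) had 25 higher (30.1%) and 11 lower (13.3%) than in CK3. Over all sequences the shares were 24.9% and 23.2%. The median log2 ratio of the T sequences was 0.33. The 37 that begin with A had a median of -0.51, the 26 with C a median of -0.37 and the 39 with G a median of -0.50. Fragment-candidate names were carried by 7 of the T sequences, 9 of the A, 12 of the C and 18 of the G sequences. Without those names the medians were 0.43 for T, -0.18 for A, 0.24 for C and 0.39 for G, so those of C and G turned sign. Many of the names were picked for high values in CK3, so leaving them out favours that turn. Within 21 nt, the 40 that begin with T had a median of 0.49 against CK3 and 0.03 against CK1, and the other 36 had -0.16 against CK3 and 0.05 against CK1. Within 21 nt, the difference between T and the other bases seen against CK3 was thus not seen against CK1. Over all lengths the medians against CK1 were 0.07 for T, -0.13 for A, 0.29 for C and 0.49 for G, so the order of the bases changed with the control.

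By precursor arm, sequences named for the 5′ arm and for the 3′ arm had close medians against either control. Of 69 sequences named 5p or p5, 18 were higher (26.1%) and 9 lower (13.0%) than in CK3, beside 24.9% and 23.2% over all sequences. Their median log2 ratio was 0.15 against CK3 and 0.16 against CK1. Of 74 named 3p or p3, 22 were higher (29.7%) and 18 lower (24.3%), their median being 0.08 against CK3 and 0.12 against CK1. The 42 sequences with no arm in the name, 23 of them with fragment-candidate names, had 6 higher (14.3%) and 16 lower (38.1%). Their medians were -0.79 against CK3 (0.03 with equal sums) and -0.04 against CK1. With nested forms of equal values merged, 11 of 37 were lower than in CK3 and the median was -0.21. Among maize names the arms were as close, with medians of 0.35 for the 38 5′-arm sequences, 13 higher and 3 lower, and 0.31 for the 32 3′-arm sequences, 8 higher and 3 lower. Against CK1 these medians were -0.01 and 0.02. The summed maize values leaned to the 3′ arm, which took 42.6% in T3, against 34.9% in CK3, with 38.4% in T1 and 40.2% in CK1.

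Outside the maize names the arm labels could not be relied on. Names of both arms were carried by 12 sequences of the table, and in 11 of the 46 pairs in which one sequence contains another the names gave opposite arms, none of them maize. The arm was therefore followed within maize precursors. Of 23 precursors with both arms listed, 15 had both arms compared, and in 4 the log2 ratios of the arms to CK3 differed by at least 1.

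In the miR397b precursor, whose 5′ strand targets laccases, the 5′ arm (zma-MIR397b-p5) had 1035 in T3 against 2210 in CK3, with 1734 in T1 and 988 in CK1. The 3′ arm (zma-MIR397b-p3) had 233 in T3 against 228 in CK3, with 274 in T1 and 215 in CK1. The 5′ arm had a log2 ratio of -1.09 to CK3 and 0.07 to CK1, so T3 lay below CK3 and T1 but level with CK1, and the 3′ arm had log2 ratios of 0.03 to CK3 and 0.12 to CK1. The 5′ arm made up 81.6% of the pair in T3, against 90.7% in CK3, with 86.3% in T1 and 82.1% in CK1. In the miR398a precursor, whose 3′ strand targets copper/zinc superoxide dismutases, the 5′ arm (zma-miR398a-5p_R+2_1ss21GA) had 58.4 in T3 against 14.9 in CK3, with 37.5 in T1 and 26.5 in CK1. The 3′ arm (zma-miR398a-3p) had 400 in T3 against 277 in CK3, with 266 in T1 and 210 in CK1. Both arms were highest in T3, with log2 ratios to CK3 of 1.91 for the 5′ arm and 0.53 for the 3′ arm, and to CK1 of 1.11 and 0.92. The arms therefore differed in their ratio to CK3 far more than in their ratio to CK1.

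The 2 other precursors had low values. The miR169i 5′ arm (zma-miR169i-5p) had 10.6 in T3 against 9.36 in CK3, with 15.4 in T1 and 16.7 in CK1. Its 3′ arm (zma-MIR169i-p3) had 23.1 in T3 against 5.78 in CK3, with 10.8 in T1 and 4.42 in CK1. The 5′ share of this pair was lowest in T3, at 31.4%, against 61.8% in CK3, with 58.8% in T1 and 79.1% in CK1, and the sign of the difference between arms was the same with either control. The miR171d 5′ arm (zma-miR171d-5p) had 21.1 in T3 against 7.43 in CK3, with 4.54 in T1 and 13.2 in CK1. Its 3′ arm, a sequence the table also names zma-MIR171j-p3, had 104 in T3 against 87.3 in CK3, with 98.2 in T1 and 175 in CK1. That 3′ strand belongs to the family that targets GRAS factors. Of the other precursors, miR528a kept nearly the same 5′ share in all libraries, at 94.5% in T3, 94.2% in CK3, 93.6% in T1 and 94.4% in CK1.

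**Figure D3:**
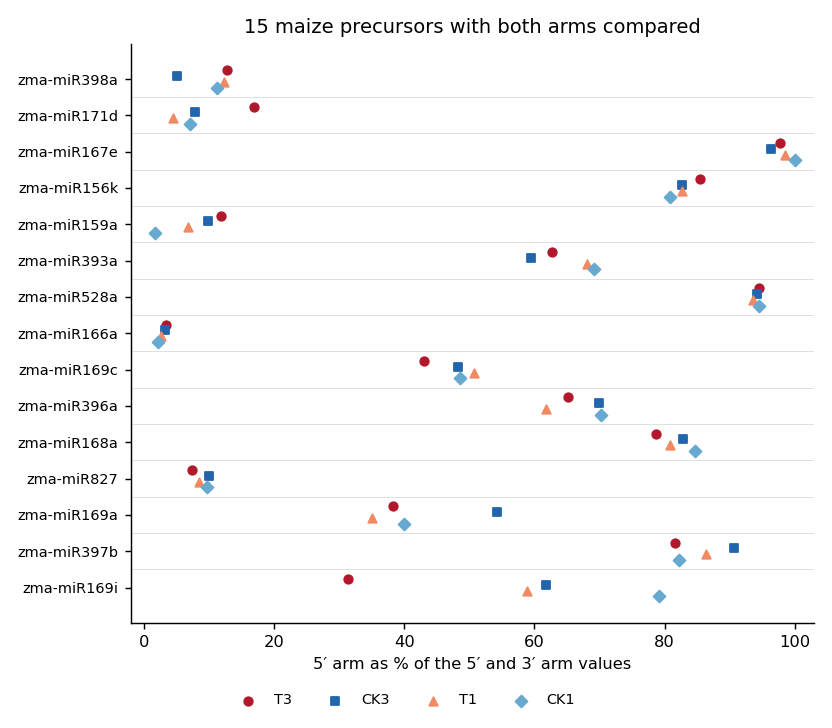
5′ arm as a percentage of the summed 5′ and 3′ arm values for the 15 maize precursors with both arms compared, in T3, CK3, T1 and CK1 (1 library each), ordered by the difference of the arms' log2 ratios of T3 to CK3. The 5′ share of miR397b is 81.6% in T3 and 90.7% in CK3, and that of miR169i is 31.4% in T3 and 61.8% in CK3.

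Among the maize-named families, 26 reached 10 in T3 or CK3. Of these, 7 (26.9%) were 2-fold higher in T3 than in CK3, namely miR160, miR164, miR166, miR319, miR162, miR172 and miR399, and 1 (3.85%), miR2118, was lower. None of the 7 was 2-fold different from CK1. All 7 were also higher in T1 and in CK1 than in CK3, so for these families CK3 was the lowest library. Over the 26 families the median log2 ratio was 0.40 to CK3 and 0.07 to CK1. Target roles below are textbook knowledge, mostly from Arabidopsis and rice, and no target was measured here. Family members can share reads, and the intervals below rest on implied reads, cover counting error only and say nothing of variation between plants.

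In the list of growth and leaf development regulators, 4 of 10 families were higher than in CK3, beside 26.9% over all maize families, and none lower, and none differed 2-fold from CK1. The miR166 family, which restrains HD-ZIP III factors that set the upper side of the leaf, summed to 2242 in T3 against 1092 in CK3, with 1829 in T1 and 1675 in CK1. T3 was 2.05-fold above CK3 (95% interval 1.94 to 2.18) and 1.34-fold above CK1, the highest of the 4 libraries. Of its members shown above, zma-miR166a-3p had 1470 in T3 against 778 in CK3, with 1208 in T1 and 932 in CK1. The 21-nt zma-miR166j-3p had 284 in T3 against 82.4 in CK3, with 220 in T1 and 242 in CK1, and the CK3 value stood apart from the other libraries. The miR164 family, which targets NAC factors of organ boundaries and ageing, summed to 481 in T3 against 236 in CK3, with 368 in T1 and 453 in CK1. T3 was 2.04-fold above CK3 (1.80 to 2.33) and level with CK1.

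Within miR164, the members with the seed GGAGAAG split in their level in CK1. The main member, zma-miR164a-5p, had 362 in T3 against 173 in CK3, with 267 in T1 and 354 in CK1. The member zma-miR164e-5p had 55.6 in T3 against 19.8 in CK3, with 40.6 in T1 and 13.2 in CK1. Only the second was 2-fold above both unfed libraries, and T1 was above both as well. The 24-nt gma-miR164a_R+3 had 10.6 in T3 and 7.27 in T1 and was listed at 0 in CK3 and CK1.

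The miR172 family, which represses AP2-like factors of the juvenile to adult change, summed to 21.5 in T3 and was listed at 0 in CK3, with 23.6 in T1 and 30.5 in CK1. The miR319 family, which targets TCP factors of leaf growth, summed to 11.4 in T3 against 2.06 in CK3, with 10.6 in T1 and 6.62 in CK1. Both were low families, and CK3 alone stood apart. The miR156 family, which holds back SPL factors of the adult phase, summed to 1390 in T3 against 1224 in CK3, with 1301 in T1 and 1335 in CK1. Its zma-miR156j-5p_R-1 had 44.4 in T3 against 8.26 in CK3, with 44.2 in T1 and 38.3 in CK1. The miR159 family, which targets MYB factors, summed to 419 in T3 against 242 in CK3, with 317 in T1 and 375 in CK1. Its 3′-arm zma-miR159c-3p_L-1R-1 had 17.3 in T3 and was listed at 0 in CK3, with 12.1 in T1 and 11.0 in CK1.

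The miR171 family of GRAS regulators summed to 167 in T3 against 105 in CK3, with 161 in T1 and 244 in CK1. The miR396 family, which restrains growth-regulating factors, summed to 673 in T3 against 589 in CK3, with 759 in T1 and 685 in CK1. In both, T3 exceeded CK3 but not CK1. The 2 families of this list below CK3 were miR169 and miR529. The miR169 family, which targets nuclear factor Y subunit A, summed to 203 in T3 against 296 in CK3, with 325 in T1 and 189 in CK1. The miR529 family, which shares SPL targets with miR156, had 39.4 in T3 against 74.3 in CK3, with 36.9 in T1 and 50.04 in CK1. Of these, miR529 was below both unfed libraries, at 0.531-fold of CK3 (0.398 to 0.708) and 0.788-fold of CK1.

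Of 4 auxin families 1, miR160, was higher than in CK3, near the share of 26.9% over all maize families, and none differed 2-fold from CK1. The miR160 family, which targets auxin response factors, summed to 600 in T3 against 247 in CK3, with 459 in T1 and 663 in CK1. T3 was 2.43-fold above CK3 (2.15 to 2.76) and 0.904-fold of CK1. Its leading zma-miR160a-5p had 549 in T3 against 228 in CK3, with 428 in T1 and 615 in CK1, and the 22-nt mtr-miR160a_R+1 had 4.93 in T3 against 13.2 in CK3, with 3.94 in T1 and 0 in CK1. The base added at the 3′ end thus went with a ratio on the other side of CK3. The miR167 family, also directed at auxin response factors, summed to 1003 in T3 against 1216 in CK3, with 877 in T1 and 828 in CK1. The miR390 family, which triggers TAS3 small RNAs, summed to 427 in T3 against 457 in CK3, with 547 in T1 and 706 in CK1, and its log2 ratio to CK3 was -0.10 (0.14 with equal sums). The miR393 family, which targets TIR1 auxin receptors, summed to 141 in T3 against 114 in CK3, with 161 in T1 and 133 in CK1.

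Of the 2 small RNA machinery families compared, 1 was higher than in CK3, beside 26.9% over all maize families. This was miR162, which targets DCL1. Its only member zma-miR162-3p_R+1 had 29.6 in T3 and was listed at 0 in CK3, with 26.04 in T1 and 42.7 in CK1. Those are 84 implied reads in T3 and 58 in CK1. The miR168 family, whose 5′ strand targets AGO1, summed to 5468 in T3 against 4186 in CK3, with 4912 in T1 and 5501 in CK1. T3 was thus 0.994-fold of CK1. Most of the sum came from the opposite strand, as the 3′-arm sequences had 4241 in T3 against 3207 in CK3, with 3725 in T1 and 4136 in CK1. The 5′-arm zma-miR168a-5p had 1227 in T3 against 979 in CK3, with 1187 in T1 and 1365 in CK1. None of the 4 copper and laccase families was 2-fold different from CK3 or CK1. The miR397 family fell short of the threshold below CK3, with 1268 in T3 against 2438 in CK3, 2008 in T1 and 1202 in CK1, or 0.520-fold of CK3 (0.495 to 0.546). The miR408 family, which targets plantacyanins and laccases, summed to 3440 in T3 against 3889 in CK3, with 3306 in T1 and 2784 in CK1, and its log2 ratio to CK3 was -0.18 (0.06 with equal sums). The miR528 family, known in rice for ascorbate oxidase, summed to 1975 in T3 against 1274 in CK3, with 1984 in T1 and 2284 in CK1. The miR398 family summed to 501 in T3 against 372 in CK3, with 372 in T1 and 263 in CK1. In this list miR398 was the only family with T3 highest of the 4 libraries, at 1.35-fold of CK3 (1.21 to 1.503) and 1.90-fold of CK1.

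In the nutrition list 1 of 3 families compared was higher than in CK3, beside 26.9% over all maize families. This was miR399, which targets PHO2 of phosphate signalling. It summed to 19.01 in T3 and was listed at 0 in CK3, with 15.9 in T1 and 11.8 in CK1. The miR827 family, which targets SPX proteins, summed to 1227 in T3 against 728 in CK3, with 857 in T1 and 1141 in CK1. The miR444 family, which in rice targets MADS-box factors, summed to 976 in T3 against 751 in CK3, with 1088 in T1 and 1420 in CK1. T3 was above CK3 in all 3 and above CK1 in miR399 and miR827. The one family lower in T3, miR2118, known in grasses for cutting phasiRNA precursors, rested on zma-miR2118b, which was listed at 0 in T3, against 14.9 in CK3, with 6.66 in T1 and 7.36 in CK1. Its value in CK3 was 18 implied reads. Outside the lists, miR394 of F-box regulation had 265 in T3 against 198 in CK3, with 250 in T1 and 360 in CK1, and miR1432 had 21.1 in T3 against 19.8 in CK3, with 15.1 in T1 and 0 in CK1.

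**Figure D4:**
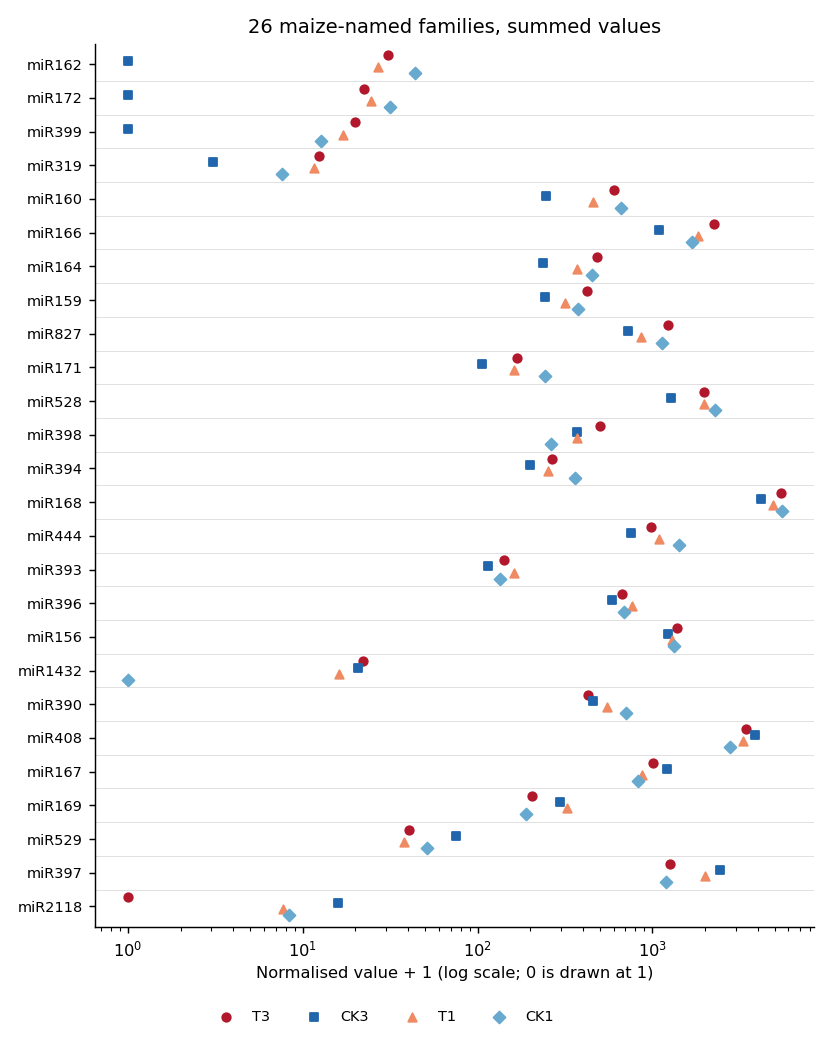
Summed normalised value + 1 (log scale) of the 26 maize-named families in T3, CK3, T1 and CK1 (1 library each), ordered by the log2 ratio of T3 to CK3; a value listed at 0 is drawn at 1. For the families at the top the CK3 marker stands left of the other 3, and miR2118 at the bottom has T3 at 0.

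Of the 185 sequences, 19 stood 2-fold beyond both CK3 and CK1 in the same direction, 15 higher and 4 lower, and 6 of them had maize names. The minimum of 10 was asked only of T3 or CK3 here. Most of the higher ones were under 10 in CK3, both miR5083 sequences among them, and so passed it through T3 alone. All 4 lower ones were under 10 in T3 and passed it through CK3 alone. Of these, zma-miR2118b and zma-miR156i-3p were also under 10 in CK1. Implied reads were 180674 in T3 but 90834 in CK3 and 87014 in CK1, so CK1 is a weak check on low values in CK3. The widest of the higher ones that was listed in all libraries, osa-MIR5083-p3_1ss25GT, had 89.1 in T3 against 7.43 in CK3, with 38.1 in T1 and 38.3 in CK1. T3 was 11.99-fold above CK3 (6.21 to 26.5) and 2.33-fold above CK1. The overlapping osa-MIR5083-p5_1ss24GC had 13.4 in T3 against 4.13 in CK3, with 6.06 in T1 and 3.68 in CK1. Both miR5083 sequences were highest after 3 days of feeding. The maize names among the higher ones were zma-miR164e-5p, zma-miR398a-5p_R+2_1ss21GA and zma-MIR169i-p3, described above, and zma-miR159a-5p. This last, the strand opposite the MYB-targeting one, had 39.8 in T3 against 18.99 in CK3, with 18.5 in T1 and 5.89 in CK1.

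The sequence aof-MIR8155-p3_1ss5CA had 16.9 in T3 and was listed at 0 in CK3, T1 and CK1, which is 48 implied reads in T3. Also listed at 0 in both unfed libraries were sbi-MIR169o-p3_2ss3CA18GT, with 16.2 in T3 and 12.1 in T1, and osa-miR166a-3p_R+1, with 11.97 in T3 and 8.17 in T1. The same held for osa-miR5072_L-4, with 15.5 in T3 and 16.3 in T1. Thus of the 5 sequences at 0 in both unfed libraries, miR8155 alone was missing from T1. The sequence osa-miR5082_R-1_1ss1TC had 23.2 in T3 and was listed at 0 in CK3, with 11.8 in T1 and 3.68 in CK1. The sequence osa-MIR6256-p5_2ss10GC17TA had 60.6 in T3 against 23.9 in CK3, with 51.5 in T1 and 19.1 in CK1, and osa-miR5077_L-1_1ss5GA had 55.6 in T3 against 13.2 in CK3, with 34.5 in T1 and 22.1 in CK1. The fed libraries were above the unfed ones for both. The sequence vvi-MIR3630-p5_2ss18AT19CT had 24.6 in T3 against 4.95 in CK3, with 28.2 in T1 and 11.8 in CK1.

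The lower ones were few in reads. Besides zma-miR2118b, zma-miR156i-3p was listed at 0 in T3, against 11.6 in CK3, with 10.3 in T1 and 7.36 in CK1. The sequence gma-miR6300_L-1R+8 had 3.52 in T3 against 27.3 in CK3, with 5.75 in T1 and 11.8 in CK1. The sequence gma-MIR6300-p3_1ss15AG had 2.11 in T3 against 20.6 in CK3, with 4.54 in T1 and 22.8 in CK1. In both miR6300 sequences T3 was the lowest library and T1 the next.

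**Figure D5:**
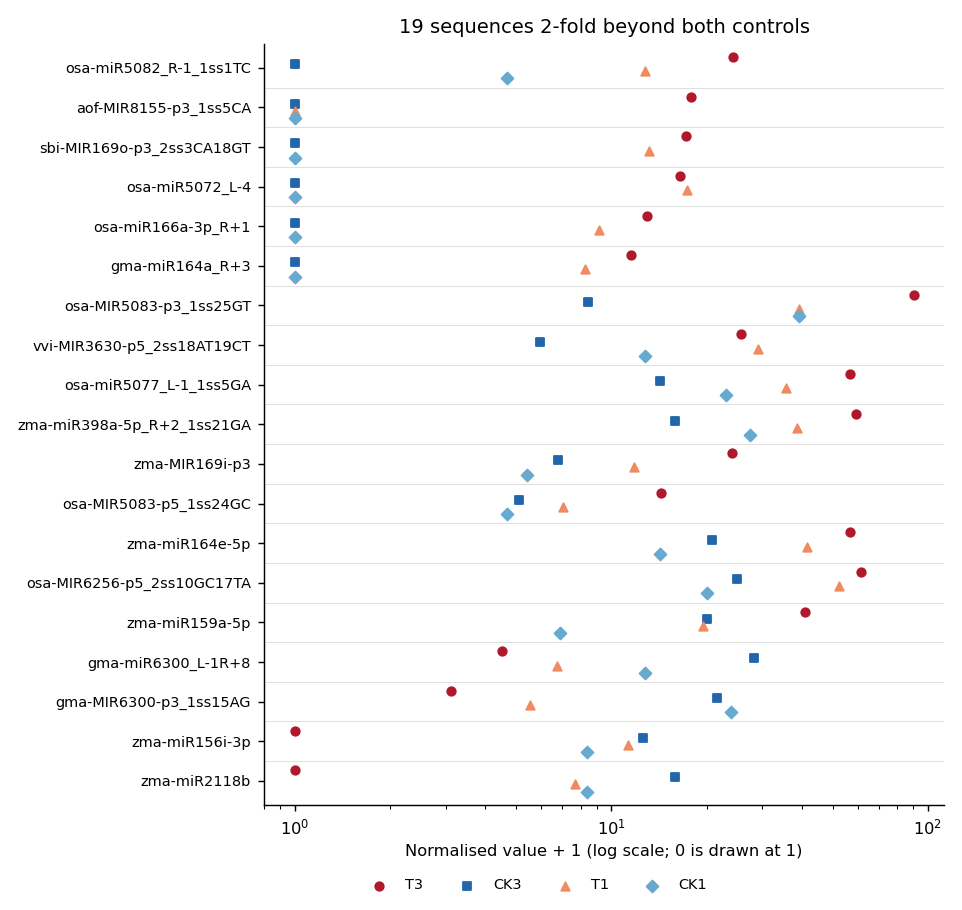
Normalised value + 1 (log scale) in T3, CK3, T1 and CK1 (1 library each) of the 19 sequences at least 2-fold beyond both unfed libraries, ordered by the ratio of T3 to CK3; a value listed at 0 is drawn at 1. The T3 marker is right of both unfed markers in 15 sequences and left of both in 4.

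Listing at 0 accounted for part of the calls. Of the 46 higher sequences 15 were listed at 0 in CK3, with 10.2 to 33.1 in T3, and 14 of these were listed in T1 and 10 in CK1. The highest were a pair of nested sequences, osa-MIR6253-p5_2ss5AC17TA and osa-MIR6253-p3_2ss5AC17TA_1, which each had 33.1 in T3, 19.1 in T1 and 23.5 in CK1. PC-3p-17806_53, a predicted 24-nt candidate, had 20.4 in T3, 9.69 in T1 and 11.8 in CK1, and PC-5p-28290_30 had 11.97 in T3, 4.24 in T1 and 8.83 in CK1. Of the 4 libraries CK3 alone listed these sequences at 0, which can hide a value up to 4.13, close to the 4.24 of the last one in T1. Of the 43 lower sequences 4 were listed at 0 in T3, with 11.6 to 24.8 in CK3. Among them hbr-miR6173_R+2, with 24.8 in CK3, and aly-miR396b-5p_R+1, with 11.6 in CK3, were listed at 0 in T1 and CK1 too.

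Forms extended at the 3′ end tended to have the lower ratio to CK3. Among 37 pairs in which a sequence and a form of it with added 3′ bases were both compared, the longer form had the lower log2 ratio in 28, with a median difference of -0.72. Against CK1 it was the lower in 21, with a median difference of -0.14. Without fragment-candidate names 22 pairs remained, and the longer form was the lower in 15 against CK3 and in 10 against CK1. Many pairs share a sequence, so they are not independent. In miR528, the longer bdi-miR528-5p_R+1 had 39.4 in T3 against 66.1 in CK3, with 38.7 in T1 and 75.1 in CK1, while zma-miR528a-5p had 1867 in T3 against 1201 in CK3, with 1857 in T1 and 2157 in CK1. The longer form took 2.07% of this pair in T3, against 5.22% in CK3, with 2.04% in T1 and 3.36% in CK1. Other pairs went the other way. The 24-nt miR408 form named above took 70.4% of its pair with the 22-nt osa-miR408-3p_L-1R+2 in T3, against 36.1% in CK3, with 73.0% in T1 and 61.9% in CK1.

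In some sequences T3 lay above one unfed library and below the other. The 3′-arm ata-miR156b-3p_1ss6TC had 35.9 in T3 against 8.26 in CK3, with 44.8 in T1 and 86.8 in CK1. The 23-nt tae-MIR9774-p3_2ss21TC23TG had 42.6 in T3 against 9.91 in CK3, with 41.8 in T1 and 82.4 in CK1. T3 stood between the unfed libraries in both, well away from each. The 24-nt tae-miR9774_L+2_2ss21TC23TG had 68.3 in T3 against 37.2 in CK3, with 71.8 in T1 and 144 in CK1. The 23-nt tae-miR9774_L+1_2ss4AG21GT, a form of the leading sequence, had 1027 in T3 against 2034 in CK3, with 1131 in T1 and 1122 in CK1. A further pair of 22 and 23 nt, tae-MIR9774-p3_2ss5AG22GT_1 and tae-MIR9774-p3_2ss5AG22GT_2, had equal values, with 3699 in T3 against 5353 in CK3, 3823 in T1 and 4588 in CK1. In these abundant miR9774 forms T3 was instead below both unfed libraries, and CK3 had the highest value. The 21-nt bdi-MIR444d-p5_1ss2GA had 2.46 in T3 against 14.0 in CK3, with 3.63 in T1 and 0 in CK1.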

How the data were processed

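Small RNA libraries from maize leaves were made with the TruSeq Small RNA kit and read on an Illumina HiSeq, per the labels' protocols. The authors deposited a table of normalised signal values per microRNA sequence, per the file headers, with sequence and length. How they were scaled, and with which aligner, caller and build they were made, is not given in the sources used here. The table had 500 rows, which held 319 distinct sequences of 18 to 25 nt. A sequence with several rows was kept once, with its maize name preferred, and families are sums over maize names. All 4 value columns matched a sample's title, and 0 were left unmatched.

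Sequences with at least 10 in T3 or CK3 were compared as log2((T3 + 1)/(CK3 + 1)) and called at a 2-fold difference. The same rule was applied with CK1, over sequences with at least 10 in T3 or CK1, except where the sequences compared with CK3 are placed relative to CK1 by the ratio alone. No test was made, since each group had 1 library, and p-values are not given. The value of 1 read was taken as the largest step of which at least 85% of low values are whole multiples within 0.02 of a read, which held for 90.4% to 93.8% of values above 0. Because the rest were not whole, no count model was used. The 95% intervals are exact conditional binomial intervals on implied reads. They cover counting error only, as PCR copies of a molecule were not marked.

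Sequences named in the text are the maize families called against CK3 or belonging to lists by target, the 2 highest and 2 lowest ratios and the 2 most abundant of each length class, the 2 highest and lowest of each arm class, those 2-fold beyond both unfed libraries, and maize precursors whose arms differ by at least 1 in log2 ratio. Others named were chosen after their values were seen. The comparison and the lists were chosen with earlier results of these data known. Alternatives were other controls, scalings, pseudocounts, minimum values and sets of names, and a median was taken as moved beyond 0.2 on the log2 scale. The steps were tested on simulated data. Python 3.11.15, pandas 2.3.3, numpy 2.4.6, scipy 1.17.1 and matplotlib 3.10.9 were used.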

Additional observations from a re-analysis of the deposited data

Results flagged for a closer look

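In 4 sequences T3 differed 2-fold from CK3 in one direction and T1 differed 2-fold from CK1 in the other. Each comparison has 1 library a side, and the difference between the comparisons was not tested. The maize 5′-arm zma-miR171d-5p had a log2 ratio of 1.39 for T3 over CK3 and -1.36 for T1 over CK1, with 21.1 in T3, 7.43 in CK3, 4.54 in T1 and 13.2 in CK1. The predicted PC-3p-12223_82 had 1.38 for T3 over CK3 and -1.04 for T1 over CK1, with 12.3 in T3, 4.13 in CK3, 6.66 in T1 and 14.7 in CK1. The sequence aof-miR408_R+1_2ss19GT20CT had -1.58 for T3 over CK3 and 1.43 for T1 over CK1, with 19.7 in T3, 61.1 in CK3, 25.4 in T1 and 8.83 in CK1. The sequence gma-MIR5368-p3_1ss14CA had -1.71 for T3 over CK3 and 1.15 for T1 over CK1, with 38.0 in T3, 126 in CK3, 17.6 in T1 and 7.36 in CK1. In the last 2 the highest and the lowest of the 4 values were both unfed libraries.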

How the results depend on the processing

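With CK1 in place of CK3, 13 sequences were lower, the medians were 0.039 at 21 nt and -0.23 at 22 nt, and 1 maize family was higher. With the mean of CK1 and CK3, 25 sequences were higher and 16 lower, and 3 families were higher. Equal sums gave medians of 0.31 over all sequences, 0.56 at 21 nt and -0.28 at 22 nt. With no minimum 115 sequences were higher, the median was 0.38 and that at 22 nt -0.18; with a minimum of 50, 13 were higher and 15 lower, and 3 families were higher and 0 lower. Without fragment-candidate names 14 sequences were lower and the median was 0.38. With maize names alone 23 were higher, 7 were lower and the median was 0.33. Families summed over names of all species gave 15 higher and 6 lower. Median-of-ratios scaling, pseudocounts of 0.5 and 5, merging of repeats and, added after seeing the data, setting 0 to the level of 5 reads moved none of these counts by more than 1.5 times and none of these medians by more than 0.2.

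Naming took in every sequence 2-fold beyond both unfed libraries, so the number that keep their call below was set by that rule and measures no agreement. Over all sequences compared, 15 of 46 higher ones and 4 of 43 lower ones were 2-fold beyond CK1 in the same direction. Of 54 named sequences and families called against CK3, 20 kept call and direction against CK1, 13 kept direction alone, 2 were listed at 0 in both T3 and CK1, and 19 changed sign. The log2 ratios to CK1 of those 19 were -1.25 for ata-miR156b-3p_1ss6TC, -0.94 for tae-MIR9774-p3_2ss21TC23TG, 1.79 for bdi-MIR444d-p5_1ss2GA and hbr-MIR6173-p5_1ss7TG, 2.73 for hbr-miR6173, 1.46 for gma-miR6300_R+7_2 and 0.29 for the 3 hbr-MIR6173-p3_1ss4CT sequences. For gma-MIR5368-p3_1ss17CA, gma-MIR5368-p3_2ss16CA22AC and gma-MIR5368-p3_2ss1AT18CA they were 0.66, 1.14 and 0.37, and for gma-miR4995_L+4 and gma-miR4995_L-2R+4 0.47 and 0.011. For miR160, miR162 (with zma-miR162-3p_R+1) and miR172 they were -0.15, -0.51 and -0.49, and for zma-MIR397b-p5 0.068. Against the mean of both controls ata-miR156b-3p_1ss6TC had -0.40 and tae-MIR9774-p3_2ss21TC23TG -0.11. The cause was not tested.

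No paired analysis was possible because each group had 1 library. Differences between plants, times of sampling and libraries cannot be told apart from feeding. CK3 had the larger value per read, so its low values are the least precise.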

Other observations

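Of the 185 sequences compared, 10 end in CCA, an ending looked at after the values were seen, and 13 of the 319 sequences carry it. Against CK3 5 of the 10 were higher in T3 (24.9% over all sequences), 0 were lower and the median log2 ratio was 1.03. Of these 10, 3 were listed at 0 in CK3 and so passed the minimum through T3 alone. The form bdi-miR156b-5p_R+3, with 13.7 in T3 and 7.43 in CK3, also passed through T3 alone. A set of 4 was listed at 0 in CK1. Against CK1 6 were higher (20.2% over all), 0 were lower and the median was 1.37. Several are forms with added 3′ bases, such as gma-miR164a_R+3 and osa-miR166a-3p_R+1, and 4 carry fragment-candidate names, such as osa-miR5077_L-1_1ss5GA. The form bdi-miR156b-5p_R+2 had 17.6 in T3 against 23.1 in CK3, with 10.3 in T1 and 0 in CK1.

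Maize miR11970 was listed in CK1 alone, at 13.2, and maize miR2275, a family that cuts phasiRNA precursors in grass anthers, in T1 alone, at 3.03.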
